A study of Mus musculus with 20 samples.

Results

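The genes described here encode the subunits of respiratory complex I that are made from nuclear DNA. They were taken from the deposited count table of a bulk mRNA sequencing study of mouse liver as the protein-coding genes whose symbol starts with Ndufa, Ndufb, Ndufc, Ndufs, Ndufv or Ndufab followed by a digit. Assembly factors, whose symbols start with Ndufaf, were left out. The rule found 38 genes among the 32400 genes of the table, of which 21923 were protein-coding by name in GENCODE release M21. All 38 passed the filter on low counts. They lie on 15 chromosomes, 2 of them on X. Another symbol of the family, Ndufb1-ps, is typed as a long noncoding RNA in that annotation and so was not counted. Its gRNA against HFHF control difference was 0.24 on the log2 scale (SE 0.10, edgeR adjusted p = 0.065).

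The study held 20 liver libraries of the substrain C57BL/6NTac. Chow controls (n = 5) had standard chow and no treatment. The HFHF control group (n = 7) was fed a high-fat, high-fructose (HFHF) diet and given phosphate-buffered saline as vehicle. The HFHF Flcn gRNA group (n = 8) was fed the same diet and given AAV8, an adeno-associated virus serotype that enters hepatocytes well, with a guide RNA against Flcn, the gene of folliculin. Both HFHF groups therefore share the diet, and the gRNA group differs from its control also by having received a virus rather than saline. Sources used here do not give the source of the nuclease, its promoter, the guide's position or the ages of the mice. No group received the virus without the guide, so virus and guide cannot be told apart. Whether every library is from its own animal is not stated, so each p-value reflects only the spread among these libraries, which may be technical in part.

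Complex I is the NADH dehydrogenase of the inner mitochondrial membrane. It takes electrons from NADH, passes them through a flavin and a chain of iron-sulphur clusters to ubiquinone, and pumps protons with the energy released. Its matrix arm consists of the N module, where NADH is oxidised, and the Q module, where ubiquinone is reduced. The membrane arm, or P module, has a proximal part next to the Q module and a distal part at its far end, and its proton-pumping core is encoded by mitochondrial DNA. The other subunits, called supernumerary, surround this core and are needed for assembly and stability. In liver the complex reoxidises the NADH made by fatty acid oxidation and the citric acid cycle.

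The start regions of these genes were examined for short motifs of factors known to act on respiratory genes. RefSeq start regions of 300 bases (250 before to 50 after the annotated start, build GRCm38.p6) were at hand for 33 of the 38 genes, and for 16522 protein-coding genes in all. Ndufa2, Ndufa4l2, Ndufb9 and Ndufs1 were among those not matched. Both strands were searched for exact matches, and a gene was counted once if any of its annotated start regions matched. The YY1 motif AAGATGGCG was in 5 of the 33 genes (15.2%) and in 2.25% of all 16522 genes. The NRF1 motif GCGCATGCG was in 2 of 33 (6.06%, against 2.74% of all), the ETS motif CCGGAAGT in 1 (3.03%, against 5.94%), the palindromic CLEAR motif TCACGTGA of the MiT/TFE factors in 1 (3.03%, against 1.45%), and the ERRA motif TCAAGGTCA in 0 (against 0.387%). At least 1 of the 5 motifs was in 9 of 33 genes (27.3%), compared with 11.8% of all genes, and 24 genes held none. A match is a description of letters and not of a bound site.

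The 5 windows with the YY1 motif are shown because the motif stood at the same place in each: it began 23 to 36 bases after the annotated start, on the gene's own strand, and the ATG inside it was the annotated start codon. These are 30-base RefSeq windows on the strand of the gene, written 5′ to 3′, with the motif in capitals.
Ndufa9 (chr6:126849096-126849125, minus strand): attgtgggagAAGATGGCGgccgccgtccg
Ndufc1 (chr3:51408914-51408943, minus strand): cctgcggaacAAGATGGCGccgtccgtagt
Ndufs4 (chr13:114388045-114388074, minus strand): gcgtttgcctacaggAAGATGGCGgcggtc
Ndufs6 (chr13:73328433-73328462, minus strand): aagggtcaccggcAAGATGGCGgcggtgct
Ndufs7 (chr10:80249463-80249492, plus strand): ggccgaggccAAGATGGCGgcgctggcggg

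The other 4 genes with a match are shown for contrast, since their motifs lay at different places. Ndufa8 held the NRF1 motif in reverse complement directly before the RefSeq start. Ndufa11 held overlapping copies on both strands, of which the forward one is in capitals. Ndufs3 held the ETS motif in reverse complement at the first bases of the RefSeq transcript. In GENCODE M21 the genes Ndufa8 and Ndufs3 both begin further upstream, so these motifs lie inside them there. In Ndufa7 a single CLEAR motif fell inside the regions of both annotated starts, 73 and 146 bases before them.
Ndufa8 (chr2:36049328-36049357, minus strand): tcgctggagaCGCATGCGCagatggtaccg
Ndufa11 (chr17:56717692-56717721, plus strand): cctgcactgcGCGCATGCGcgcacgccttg
Ndufs3 (chr2:90904703-90904732, minus strand): tgcacatttccACTTCCGGtccgtgccctt
Ndufa7 (chr17:33824488-33824517, plus strand): gcggagaggagTCACGTGAgcaggggatgc

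Total estimated counts per library were 14131976 to 16285324 in chow control, 15244760 to 18194089 in HFHF control and 13974379 to 19586576 in the gRNA group. The level of Flcn itself was 17.3 to 32.4 CPM (the usual read counts relative to library size, with library sizes scaled by TMM, the trimmed mean of M-values) in chow, 17.8 to 26.4 in HFHF control and 14.1 to 21.97 in the gRNA group. It did not pass the test between the HFHF groups (log2 fold change -0.22, SE 0.12, edgeR adjusted p = 0.140). Against chow the gRNA value was -0.32 (SE 0.13, edgeR adjusted p = 0.04995), just under the threshold, and transcript level does not measure editing. Markers of hepatocytes summed to 41250 to 96400 CPM in every library, whereas the 8 genes of a skeletal and cardiac muscle list summed to at most 0.863 CPM in chow, 7.26 in HFHF control and 0.983 in the gRNA group. In that list Acta1, Ckm, Myh7 and Tnnc2 were under 0.5 CPM throughout, and Myh6 reached 3.15 CPM in HFHF control.

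Replicates are numbered here by the order of the libraries within each group, as the labels carry no replicate numbers. One library stood apart for these genes and is set out first. Replicate 8 of the gRNA group, whose title differs from all others in its second field, was the highest of its group for 36 of the 38 genes. Its median difference from the other gRNA libraries was 0.59 on the log2 scale. The 38 genes together made up 4003 CPM in it, compared with 2470 to 3029 CPM in the other 7 gRNA libraries, 2181 to 2649 in HFHF control and 2311 to 2534 in chow. What that field marks is not stated, and as 1 library carries it no value within it can be given. Replicate 5 of the same group was the lowest for 29 of the 38. Because of replicate 8, differences between the gRNA group and HFHF control are given with and without that library for the genes described in full. Counts over gene lists are given without replicate 8 where they changed.

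**Figure D1:**
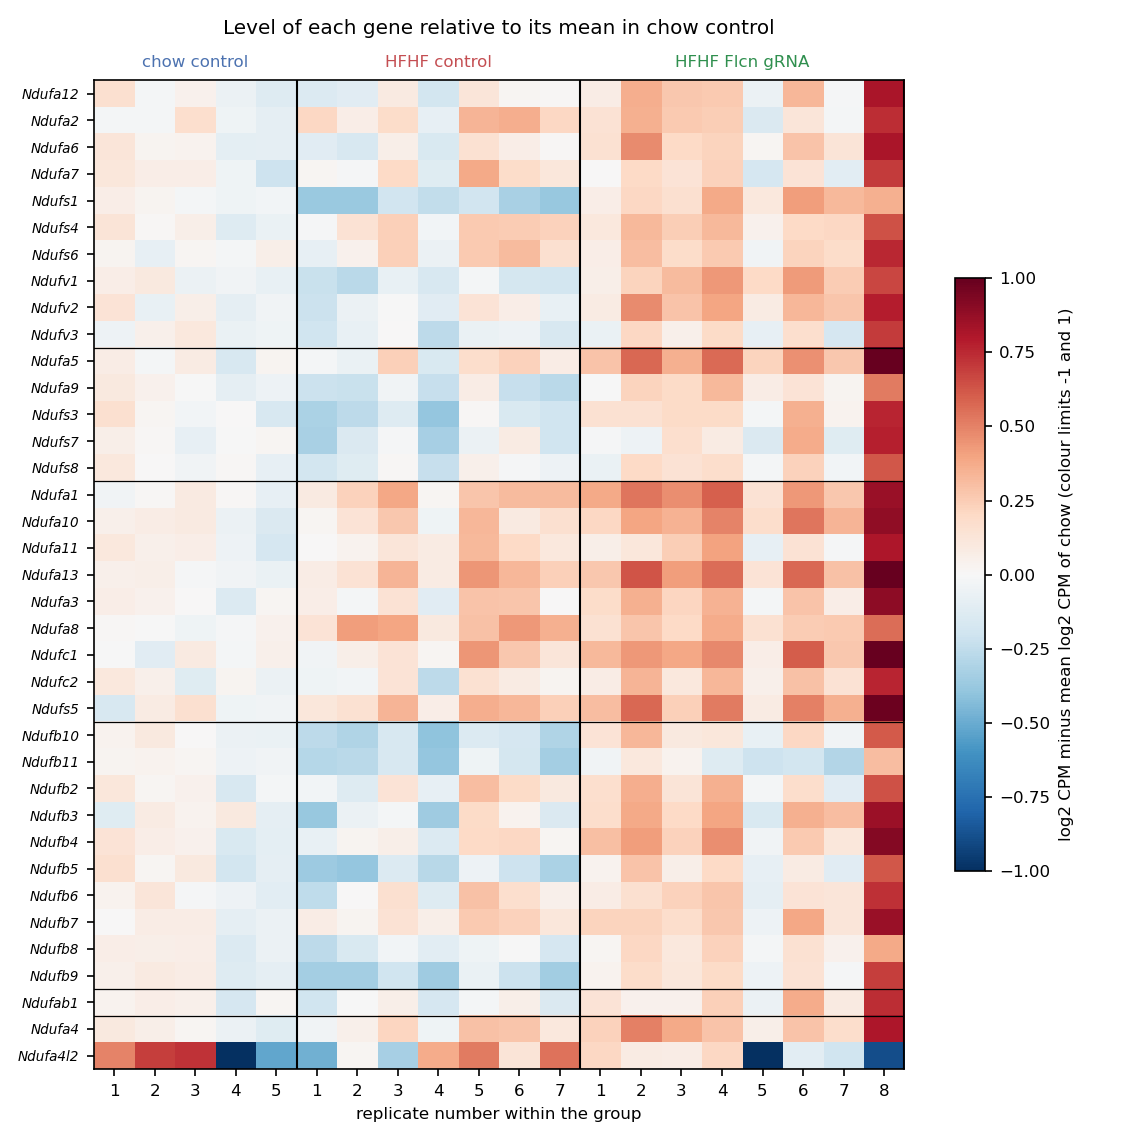
Colours give log2 CPM of 37 of the 38 genes (rows, grouped by module from N at the top to the Ndufa4 pair at the bottom) in each of the 20 libraries (columns), minus the gene's mean log2 CPM in chow control; values beyond the colour limits are drawn at the limit. The column of gRNA replicate 8 is the darkest red in nearly every row, Ndufs1 is blue throughout HFHF control, and Ndufa8 is red in both HFHF groups.

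The first comparison, gRNA against HFHF control, asks what the treatment changed on the same diet. Of the 38 genes 26 rose, 0 fell and 12 did not pass at an adjusted p of 0.05 (edgeR quasi-likelihood test, Benjamini-Hochberg over 13667 genes). Over all tested genes 19.6% were called higher and 19.0% lower, so the share of 68.4% among these genes was above the background. Their median log2 fold change was 0.27, a 1.21-fold difference, with a range of -0.33 to 0.55, where all tested genes had a median of 0.01. All but Ndufa8 and Ndufa4l2 had a fitted value above 0; without replicate 8 there were 33 above 0, as Ndufa2, Ndufa7 and Ndufa11 turned to -0.05, -0.05 and -0.00. The rises were small: the largest was 1.46-fold, in Ndufs1. Without gRNA replicate 8, 20 of the 26 were still called and the median was 0.17. The 6 lost were Ndufa1, Ndufa4, Ndufa13, Ndufb11, Ndufs7 and Ndufv3. With upper-quartile scaling 16 of the 38 rose and 0 fell, where the calls over all genes went from 2673 higher and 2597 lower to 1942 higher and 3196 lower. In a bulk library, fewer cells of a type and less RNA per cell cannot be told apart.

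The second comparison, HFHF control against chow, asks what the diet and vehicle changed. Only 7 of the 38 genes passed: Ndufa1 and Ndufa8 were higher, and Ndufs1, Ndufb5, Ndufb9, Ndufb10 and Ndufb11 were lower. Over all tested genes 28.1% were called higher and 28.9% lower, so both counts were under the background share. The median of the 38 was -0.00 and the fitted values ran from -0.29 to 0.31, with 19 above and 19 below 0. Most of these calls changed with the scaling: with upper-quartile factors 7 were higher and 1 lower, as calls over all genes went from 3847 higher and 3947 lower to 4619 and 2991. Single libraries mattered too. The count of lower genes was 1 without chow replicate 1, 2 or 3 and 3 without chow replicate 5, and the count of higher genes was 1 without HFHF control replicate 3, 6 or 7. Without the low-count filter 1 was lower. In a fit of these 2 groups alone, 7 were higher and 8 lower. Ndufa8 and Ndufs1 passed under every alternative run.

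The third comparison set the gRNA group against chow. Of the 38 genes 21 rose, 0 fell and 17 did not pass, where 20.9% of all tested genes were called higher and 21.7% lower. The median was 0.26 with a range of -0.38 to 0.53. Without gRNA replicate 8 the same 21 genes passed, with a median of 0.21. The 3 comparisons share groups, so their values for one gene are not independent, and the gRNA group also differs from chow in both diet and virus.

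**Figure D2:**
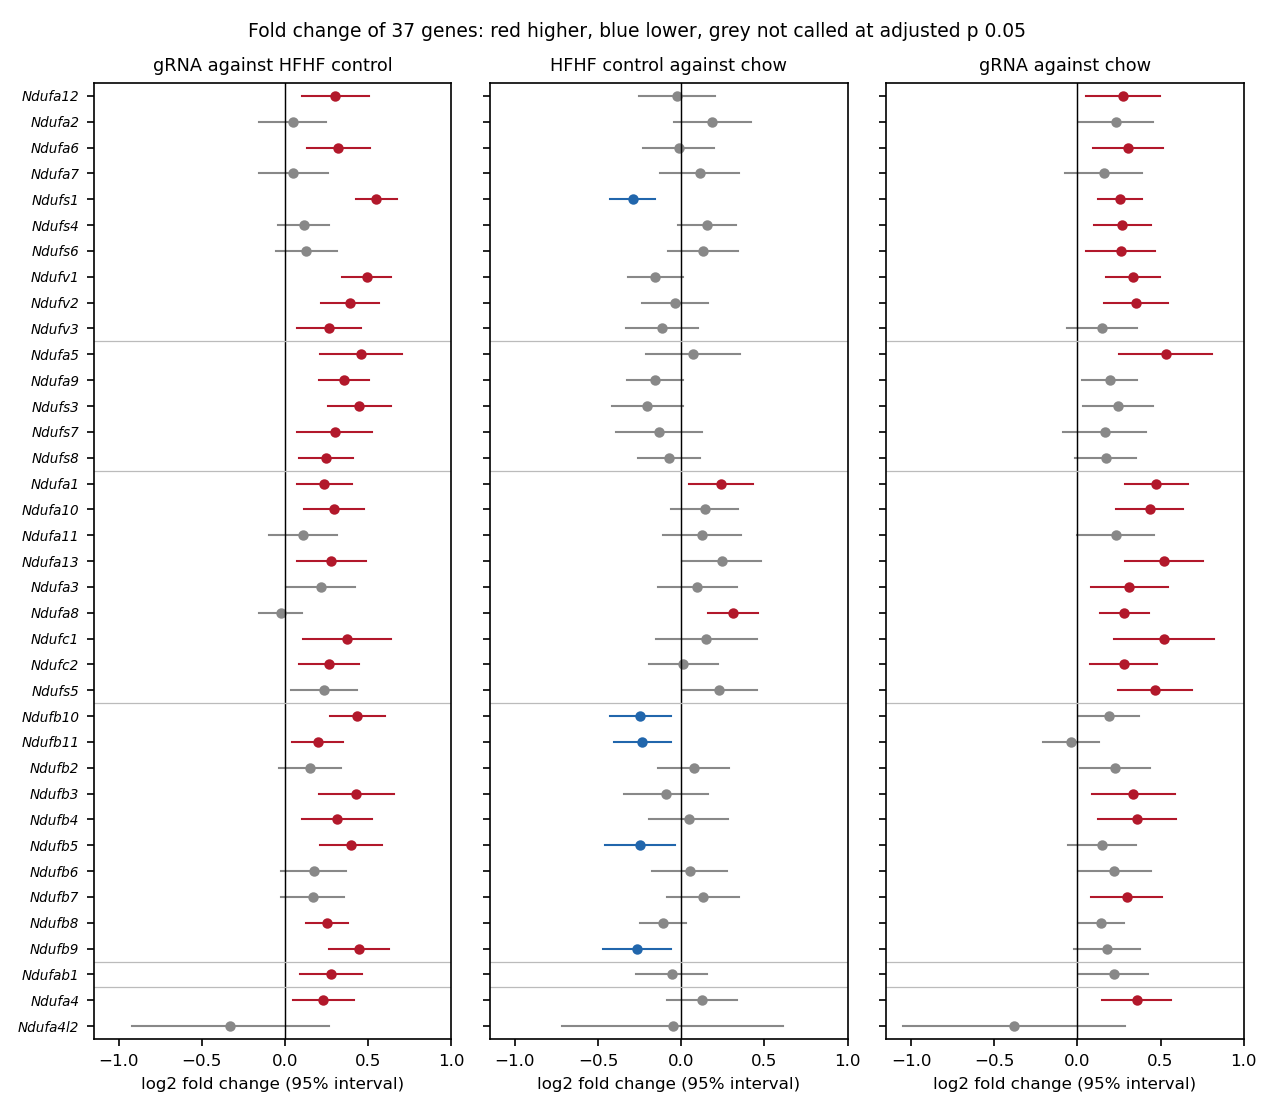
Points are log2 fold changes of 37 of the 38 genes with 95% intervals from the edgeR fit for the 3 comparisons, in the same order of rows as the modules N, Q, P proximal, P distal, acyl carrier and Ndufa4 pair; red is higher, blue lower and grey not called. In the left panel 25 points are red and none is blue, and in the middle panel 2 are red and 5 blue.

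The 7 subunits that are conserved from bacteria, and that hold the flavin and all iron-sulphur clusters, all rose in the gRNA group over HFHF control. Their median log2 fold change was 0.42, and it was 0.35 without gRNA replicate 8, when Ndufs7 no longer passed. Over all tested genes 19.6% were called higher in this comparison. In HFHF control over chow all 7 had fitted values below 0 (median -0.14). Of them 1, Ndufs1, passed, where 28.9% of all tested genes were called lower. With upper-quartile scaling Ndufs8 and Ndufv2 lay above 0 in that comparison (0.02 and 0.06). Their share of the summed level of the 38 genes was 24.9 to 26.1% in the chow libraries, 22.5 to 24.5% in HFHF control and 23.5 to 27.1% in the gRNA group. This share needs no scaling between libraries, and HFHF control did not overlap with chow in it.

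Ndufs1 (ENSMUSG00000025968, chromosome 1, 63143596 to 63176833, minus strand, GRCm38) encodes the largest subunit, which holds several of the iron-sulphur clusters of the N module. Its level was 121.8, 118.5, 114.7, 112.9 and 114.3 CPM in the 5 chow libraries. It ran from 89.3 to 102.2 CPM (median 92.99) in HFHF control and from 121.6 to 155.1 CPM (median 140.2) in the gRNA group. Every HFHF control library was below every chow and every gRNA library. The gRNA group was above HFHF control by 0.55 on the log2 scale (SE 0.06, edgeR adjusted p = 2.95e-07; exact permutation p = 0.000155, two-sided, the smallest that 6435 regroupings allow). HFHF control was below chow by a log2 difference of -0.29 (SE 0.07, edgeR adjusted p = 0.000623; exact permutation p = 0.00126, the smallest possible). The gRNA libraries exceeded chow by 0.26 (SE 0.06, edgeR adjusted p = 0.00299). Without gRNA replicate 8 the difference from HFHF control was 0.53. Ndufs1 shares exon bases with genes on the other strand, so without knowledge of strand in the counting some of its reads are uncertain.

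Ndufv1 (ENSMUSG00000037916, chromosome 19, 4007384 to 4012806, minus strand) encodes the subunit that binds NADH and the flavin. It had 111.0, 113.0, 101.9, 103.4 and 100.7 CPM in chow, 87.7 to 104.4 CPM (median 93.6) in HFHF control and 110.3 to 168.2 CPM (median 129.2) in the gRNA group. Each gRNA library lay above each HFHF control library, and the log2 difference was 0.49 (SE 0.07, edgeR adjusted p = 1.28e-05), or 0.43 without replicate 8. Its partner Ndufv2 (ENSMUSG00000024099, chromosome 17, 66078638 to 66101559, minus strand), with an iron-sulphur cluster of its own, had 83.5, 72.02, 79.2, 71.5 and 74.3 CPM in chow, 65.4 to 83.6 (median 72.8) in HFHF control and 80.2 to 130.7 (median 94.2) in the gRNA group. The HFHF groups overlapped for Ndufv2, yet it rose by 0.39 (SE 0.08, edgeR adjusted p = 0.00079), or by 0.31 without replicate 8. Neither passed between HFHF control and chow (-0.16 and -0.04).

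Core subunits of the Q module carry electrons from the N module to ubiquinone. Ndufs3 (ENSMUSG00000005510, chromosome 2, 90894634 to 90904827, minus strand), a scaffold of the module, had 95.9, 86.95, 84.3, 86.2 and 77.0 CPM in chow, 65.7 to 86.4 (median 74.8) in HFHF control and 84.8 to 145.8 (median 96.6) in the gRNA group. It rose by 0.45 (SE 0.09, edgeR adjusted p = 0.000502), or by 0.35 without replicate 8, with 7 of 8 gRNA libraries above every HFHF control library.

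Ndufs7 and Ndufs8 carry the last iron-sulphur clusters before ubiquinone. Ndufs7 (ENSMUSG00000020153, chromosome 10, 80249121 to 80256794, plus strand) had 26.6, 25.8, 24.1, 25.4 and 25.9 CPM in chow, 20.3 to 27.1 (median 23.1) in HFHF control and 23.1 to 43.7 (median 26.2) in the gRNA group. The groups overlapped widely and the rise of 0.30 (SE 0.11, edgeR adjusted p = 0.0344) was 0.18 without replicate 8 (adjusted p = 0.0743). For Ndufs8 (ENSMUSG00000059734, chromosome 19, 3908863 to 3912774, minus strand) the values were 49.5, 46.1, 44.95, 46.4 and 43.6 CPM in chow, 39.2 to 47.8 (median 44.4) in HFHF control and 44.1 to 70.8 (median 51.6) in the gRNA group. Its rise of 0.25 (SE 0.08, edgeR adjusted p = 0.018) was 0.16 without replicate 8 and still passed (adjusted p = 0.0362). With upper-quartile scaling Ndufs8 missed the threshold (adjusted p = 0.0637), as did Ndufs7 (adjusted p = 0.0824). Against chow 4 of the 7 core genes rose, among them Ndufs1, Ndufv1 and Ndufv2, where 20.9% of all tested genes were called higher.

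**Figure D3:**
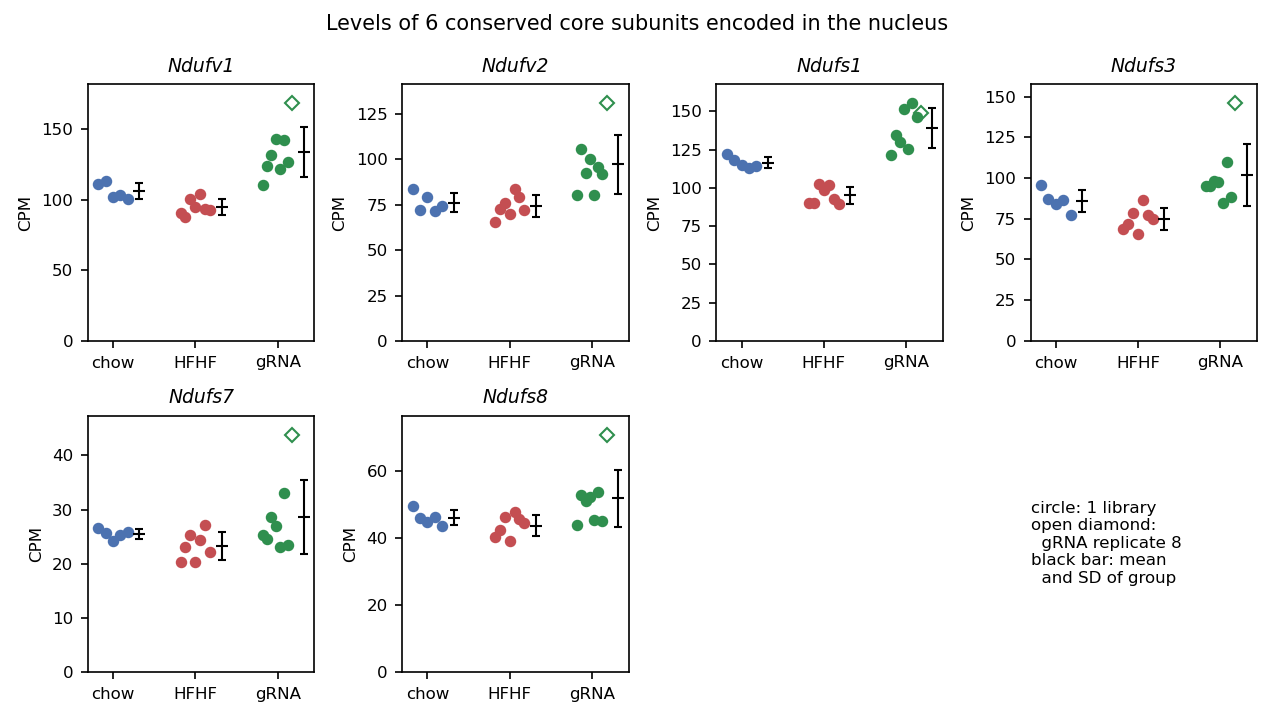
Each of the 6 panels plots CPM of 1 core subunit gene in every library of chow control (blue), HFHF control (red) and HFHF Flcn gRNA (green), on linear axes from 0; the open diamond is gRNA replicate 8 and the black bar the mean with SD of the group. For Ndufv1 and Ndufs1 every gRNA library lies above every HFHF control library.

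Counted by module, all 6 genes of the Q module rose in the gRNA group over HFHF control (median 0.39). Ndufa5 and Ndufa9 are its supernumerary members, Ndufa9 being a short-chain dehydrogenase relative at the junction of the arms. The N module had 6 of 10 higher (median 0.28), the proximal P module 5 of 9 (0.24), and the distal P module 7 of 10 (0.28). Without replicate 8 these counts were 5, 5, 3 and 6 with medians of 0.30 for Q, 0.18 for N, 0.16 for the proximal and 0.21 for the distal P module. Beside these counts, 19.6% of all tested genes were called higher in this comparison, and 2547 of 13659 without replicate 8. Whether the modules differ from each other was not tested. Ndufab1, the mitochondrial acyl carrier protein, which sits in the complex and also serves fatty acid and lipoate synthesis, rose by 0.28 (SE 0.09, edgeR adjusted p = 0.0188), or by 0.18 without replicate 8 (edgeR adjusted p = 0.0349).

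In the diet comparison the membrane arm held 2 higher and 4 lower calls among 19 genes, and the matrix arm 0 higher and 1 lower among 16. The distal P module held 4 of the 5 genes that were lower in HFHF control than in chow (Ndufb5, Ndufb9, Ndufb10 and Ndufb11), and its median was -0.10. The proximal P module held both genes that were higher (Ndufa1 and Ndufa8), with all 9 fitted values above 0 and a median of 0.15. In the gRNA group over chow 8 of 9 proximal genes rose (median 0.43, and 0.38 without replicate 8), compared with 3 of 10 distal genes (median 0.20, and 0.15 without it). The share called higher among all tested genes was 20.9% there. The diet counts of 2 of 9 higher and 4 of 10 lower stand beside 28.1% higher and 28.9% lower over all tested genes, and no difference between the proximal and distal genes was tested. All 4 distal calls were lost with upper-quartile scaling, and that of Ndufa1 without HFHF control replicate 3, 6 or 7.

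Ndufb9 (ENSMUSG00000022354, chromosome 15, 58933756 to 58939488, plus strand), a small LYR-motif subunit of the distal part, had 124.1, 127.4, 126.0, 109.0 and 112.2 CPM in chow. It was at 93.5 to 114.4 CPM (median 94.5) in HFHF control and at 115.3 to 192.6 CPM (median 130.9) in the gRNA group. Every gRNA library was above every HFHF control library. The log2 difference was 0.44 between the HFHF groups (SE 0.09, edgeR adjusted p = 0.000333; 0.35 without replicate 8) and -0.27 between HFHF control and chow (SE 0.10, edgeR adjusted p = 0.0238), the latter lost under 5 of 17 alternatives. Ndufb5 (ENSMUSG00000027673, chromosome 3, 32736990 to 32751566, plus strand), a single-pass membrane subunit, had 70.5, 63.98, 67.8, 55.6 and 59.3 CPM in chow, 48.4 to 60.9 (median 52.1) in HFHF control and 58.3 to 97.1 (median 66.5) in the gRNA group. It rose by 0.40 in the gRNA group (SE 0.09, edgeR adjusted p = 0.00125; 0.31 without replicate 8), and its diet difference of -0.25 (SE 0.10, edgeR adjusted p = 0.0393) lost the call under 12 of 17 alternatives. Ndufb5 shares 616 exon bases with Mrpl47 on the other strand, which makes its reads uncertain.

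Ndufb10 and Ndufb11 shared the direction of Ndufb9. Ndufb10 had 74.3 to 83.2 CPM in chow, 58.8 to 70.99 in HFHF control and 74.1 to 119.4 in the gRNA group. HFHF control lay below both other groups with no overlap. The gRNA rise over HFHF control was 0.35 to 0.46 across the alternatives, and 0.35 without replicate 8 (SE 0.06, edgeR adjusted p = 0.000107). Ndufb11, an X-linked subunit, had 68.5 to 72.7 CPM in chow, 54.3 to 68.98 in HFHF control and 58.0 to 88.0 in the gRNA group. The call of its rise of 0.19 (SE 0.07, edgeR adjusted p = 0.0403) was lost under 12 of 20 alternatives. Among them was the omission of gRNA replicate 8 (0.13, SE 0.06, edgeR adjusted p = 0.103). Ndufb11 shares 117 of its 908 exon bases with Rbm10 on the other strand, which leaves its reads partly uncertain.

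Ndufa8 (ENSMUSG00000026895, chromosome 2, 36036326 to 36049406, minus strand), a subunit of the intermembrane space side with paired cysteines, went the other way. It had 55.3, 54.6, 53.2, 54.2 and 56.3 CPM in chow, 58.5 to 73.99 CPM (median 70.0) in HFHF control and 60.7 to 80.5 CPM (median 65.4) in the gRNA group. All 15 HFHF libraries, with or without the guide, lay above all chow libraries. HFHF control was above chow by 0.31 on the log2 scale (SE 0.07, edgeR adjusted p = 0.000857; exact permutation p = 0.00253), and the gRNA group above chow by 0.28 (SE 0.07, edgeR adjusted p = 0.00263). Between the HFHF groups the difference was -0.03 with a 95% interval of -0.16 to 0.10 (edgeR adjusted p = 0.763), or -0.08 without replicate 8. Ndufa8 is the gene printed above with the NRF1 motif directly before its RefSeq start. That start and the motif lie inside the GENCODE span given here, which begins further upstream. Ndufa11, the other gene with that motif, passed in no comparison, and a role of the motif was not tested.

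The levels of Ndufs1 and Ndufa8 gave a ratio that does not depend on scaling between libraries. The pair was chosen after its values were seen, so the ratio is a description with no test. It was 2.03 to 2.20 in chow, 1.23 to 1.68 in HFHF control and 1.85 to 2.37 in the gRNA group. The HFHF control libraries lay below all others, and the chow and gRNA libraries overlapped. In gRNA replicate 8, the library with the highest summed level, the ratio was 1.85.

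Ndufa1 (ENSMUSG00000016427, chromosome X, 37187588 to 37191163, minus strand), a small subunit at the base of the membrane arm, was the gene called higher in all 3 comparisons, although its diet call was lost without HFHF control replicate 3, 6 or 7 and its call between the HFHF groups under 6 of 20 alternatives. It had 43.6, 44.9, 47.5, 44.9 and 42.2 CPM in chow, 45.3 to 58.3 (median 53.96) in HFHF control and 49.2 to 81.2 (median 60.9) in the gRNA group. The gRNA libraries lay above all chow libraries, while the HFHF groups overlapped. The differences were 0.24 for gRNA over HFHF control (SE 0.08, edgeR adjusted p = 0.0243, and 0.16 with adjusted p = 0.064 without replicate 8), 0.24 for HFHF control over chow (SE 0.09, edgeR adjusted p = 0.0323) and 0.47 for gRNA over chow (SE 0.09, edgeR adjusted p = 0.000246).

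With all libraries the 3 largest rises over chow were in Ndufa5, Ndufa13 and Ndufc1; without gRNA replicate 8 Ndufa13 (0.45), Ndufa1 (0.44) and Ndufa5 (0.42) led, and Ndufc1 was at 0.40. Ndufa5 (ENSMUSG00000023089, chromosome 6, 24518666 to 24528013, minus strand) of the Q module had 41.2, 38.6, 41.3, 34.98 and 39.9 CPM in chow, 35.3 to 46.1 (median 41.1) in HFHF control and 45.6 to 92.95 (median 51.9) in the gRNA group. It differed from chow by 0.53 (SE 0.13, edgeR adjusted p = 0.00306) and from HFHF control by 0.46 (SE 0.12, edgeR adjusted p = 0.00429), or by 0.31 without replicate 8. Of the 8 gRNA libraries 7 lay above all HFHF control libraries.

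Ndufa13 (ENSMUSG00000036199, chromosome 8, 69894180 to 69902558, minus strand), also known as GRIM-19, had 79.4, 79.5, 76.1, 74.7 and 72.98 CPM in chow, 80.7 to 104.0 (median 90.3) in HFHF control and 83.9 to 160.5 (median 107.4) in the gRNA group. Both HFHF groups lay above chow without overlap. HFHF control over chow was 0.24 and did not pass (SE 0.11, edgeR adjusted p = 0.0758), while gRNA over chow was 0.52 (SE 0.11, edgeR adjusted p = 0.000826). For gRNA over HFHF control the difference in mean log2 level was 0.26 (exact permutation p = 0.0437). The edgeR call for it was lost under 9 of 20 alternatives, among them the omission of replicate 8 (0.17, SE 0.08, edgeR adjusted p = 0.0799). Ndufc1 (ENSMUSG00000037152, chromosome 3, 51404677 to 51408988, minus strand), a short membrane subunit, had 21.5, 19.9, 22.9, 21.2 and 22.3 CPM in chow, 21.03 to 29.2 (median 23.4) in HFHF control and 22.6 to 52.2 (median 28.6) in the gRNA group. It was above chow by 0.52 (SE 0.14, edgeR adjusted p = 0.0061) and above HFHF control by 0.37 (SE 0.13, edgeR adjusted p = 0.0258), which was 0.22 without replicate 8. Ndufc1 had non-whole estimated counts in 19 libraries, so part of its reads were shared out between features.

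Separation of whole groups was rarer than the calls. Every gRNA library exceeded every HFHF control library for 5 of the 38 genes, among them Ndufb9, Ndufb10, Ndufs1 and Ndufv1, where 5.04% of all tested genes did so, and the same 5 without replicate 8. HFHF control lay wholly above chow for Ndufa8 and Ndufa13 (2 of 38; 18.8% of all genes) and wholly below for Ndufb10 and Ndufs1 (2 of 38; 18.1% of all genes). The gRNA group lay wholly above chow for Ndufa1, Ndufa5, Ndufa8, Ndufa10 and Ndufa13 (5 of 38; 9.01% of all genes).

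Across the 3 comparisons 13 genes were higher in the gRNA group than in both other groups with no diet call, among them Ndufv1 and Ndufv2. A further 4 were lower on the diet and higher with the gRNA than HFHF control, and not called against chow: Ndufb5, Ndufb9, Ndufb10 and Ndufb11. Ndufs1 had this pattern and also passed against chow. Another 7 passed only between the HFHF groups, 5 only against chow, and 6 in no comparison (Ndufa2, Ndufa4l2, Ndufa7, Ndufa11, Ndufb2 and Ndufb6). Without replicate 8, Ndufa4 and Ndufa13 of the 13, Ndufb11 of the 4, and Ndufs7 and Ndufv3 of the 7 no longer passed between the HFHF groups. The share of all tested genes with each pattern was not counted. By single comparison 19.6% were higher in gRNA over HFHF control, 20.9% higher in gRNA over chow, and 28.9% lower on the diet. For Ndufa2 and Ndufa7 the gRNA against HFHF control values were 0.05 each, with 95% intervals up to 0.25 and 0.26, and both were at -0.05 without replicate 8.

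The genes deviated from their group means together. Over the 703 pairs of genes, the median correlation of these deviations was 0.83 across 20 libraries and 0.68 without gRNA replicate 8. This is a description with no test. The genes were measured in the same libraries, so differences between libraries in depth, scaling or RNA quality could move many of them together. Their part was not tested. Among the lowest mean correlations with the rest were those of Ndufa4l2 (0.11), Ndufs1 (0.48) and Ndufa8 (0.67), which were 0.42, 0.45 and 0.47 without replicate 8.

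Ndufa4 and Ndufa4l2 carry the family name but are not counted as complex I subunits today. Ndufa4 (ENSMUSG00000029632, chromosome 6, 11900292 to 11907497, minus strand) encodes a protein now placed with cytochrome c oxidase. It had 182.5, 177.1, 172.7, 163.5 and 156.6 CPM in chow, 165.3 to 208.3 (median 183.1) in HFHF control and 177.3 to 298.6 (median 207.2) in the gRNA group. Its rise of 0.23 (SE 0.09, edgeR adjusted p = 0.0442) fell to 0.14 without replicate 8 (adjusted p = 0.117), while the rise over chow was 0.36 (SE 0.10, edgeR adjusted p = 0.00596). Ndufa4l2 (ENSMUSG00000040280, chromosome 10, 127514967 to 127517154, plus strand), a paralog known as a hypoxia-induced gene, was at 0.253 to 1.29 CPM in all 20 libraries, or 4 to 22 counts each. It passed in no comparison, and at this depth its interval for gRNA over HFHF control ran from -0.92 to 0.26. The value was -0.33, or -0.27 without replicate 8. Without the pair, 25 of 36 genes rose in the gRNA group over HFHF control, where 19.6% of all tested genes were called higher. The 20 genes still called without replicate 8 held neither gene of the pair.

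Levels can be compared between genes only per length of transcript. As mean CPM per kilobase of exon over all libraries, the highest were Ndufa4 at 141, Ndufa1 at 130 and Ndufb9 at 115, and Ndufa4l2 was lowest at 0.735. The order of Ndufa1 and Ndufb9 differed between groups, with 106.5 and 116.1 CPM per kilobase in chow and 125.6 and 96.6 in HFHF control. Among core subunits Ndufv1 was at 42.96 CPM per kilobase, Ndufs3 at 40.6, Ndufv2 at 39.1 and Ndufs8 at 36.9, with Ndufs7 at 15.1 and Ndufs1 at 14.6. The exon length counts every annotated exon, 8086 bases for Ndufs1, so genes with long minor exons appear low on this scale.

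The 7 subunits encoded by mitochondrial DNA form the membrane core of the complex. In the gRNA group over HFHF control 6 of 7 rose and 0 fell (median 0.50), and 5 of 7 without replicate 8 (median 0.37). Over all tested genes 19.6% were called higher there, and 2547 of 13659 without replicate 8. mt-Nd4l and mt-Nd4, 2 membrane subunits, rose by 0.56 (SE 0.12, edgeR adjusted p = 0.000662) and 0.51 (SE 0.12, edgeR adjusted p = 0.00163), or by 0.45 and 0.39 without replicate 8. None of the 7 passed between HFHF control and chow (median -0.22, the lowest edgeR adjusted p = 0.0538 for mt-Nd4l). Their sum was 39780 to 45380 CPM in chow, 33190 to 47290 in HFHF control, 43030 to 51720 in the first 7 gRNA libraries and 82540 in replicate 8. The libraries were made with an mRNA kit, and mitochondrial transcripts carry short poly(A) tails, so their levels are not on the scale of nuclear transcripts.

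**Figure D4:**
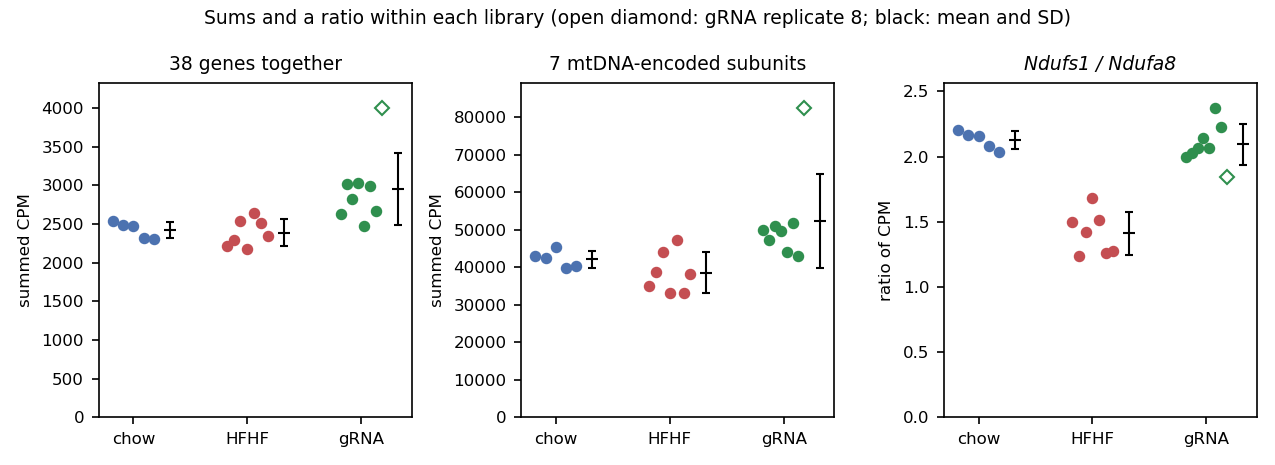
Panels plot, for every library of the 3 groups, the summed CPM of the 38 genes, the summed CPM of the 7 subunits encoded by mitochondrial DNA, and the ratio of the CPM of Ndufs1 and Ndufa8, on linear axes from 0; the open diamond is gRNA replicate 8 and black marks are mean and SD. Replicate 8 stands at 4003 and 82540 CPM in the sums, and the HFHF control ratios of 1.23 to 1.68 lie below all others.

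Assembly factors build the complex and are not part of it. Of 20 tested, 11 rose and 0 fell in the gRNA group over HFHF control (median 0.26; 10 without replicate 8). Aifm1 rose by 0.46 (SE 0.05, edgeR adjusted p = 4.97e-07), Ecsit by 0.48 (SE 0.06, edgeR adjusted p = 3.57e-06) and Foxred1 by 0.52 (SE 0.07, edgeR adjusted p = 3.76e-06). In HFHF control over chow 1 of 20 rose and 7 fell (median -0.15), with Ecsit at -0.41 and Aifm1 at -0.32. Against chow 5 rose in the gRNA group and 0 fell (4 rose without replicate 8). Beside these counts, 19.6% of all tested genes were called higher and 19.0% lower in gRNA over HFHF control. The shares were 28.1% and 28.9% in HFHF control over chow, and 20.9% and 21.7% in gRNA over chow. They apply also to the list counts of the paragraphs that follow.

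Other enzymes feed the same ubiquinone pool. Of 11 tested, among them succinate dehydrogenase and the electron-transferring flavoprotein with its dehydrogenase, 9 rose and 0 fell in the gRNA group over HFHF control (median 0.40), with Sdha at 0.48 (SE 0.06, edgeR adjusted p = 2.05e-06). On the diet 7 fell and 1 rose, the glycerol phosphate dehydrogenase gene Gpd2 at 0.97 (SE 0.13, edgeR adjusted p = 1.46e-06). Of 13 genes of ubiquinone synthesis 7 rose and 0 fell in the gRNA group, and in HFHF control over chow 3 rose and 4 fell. Coq8a, a kinase-like protein of that pathway, had the largest fall, at -1.29 on the diet (SE 0.15, edgeR adjusted p = 5.42e-07), and rose by 0.69 in the gRNA group (SE 0.14, edgeR adjusted p = 0.00053).

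The later complexes of the chain rose by similar counts. In the gRNA group over HFHF control 7 of 9 genes of complex III rose (median 0.39), 9 of 11 nuclear genes of complex IV (0.33) and 12 of 15 of the ATP synthase (0.40), and 0 fell in each. Without replicate 8 the counts were 6, 7 and 11, with medians of 0.30, 0.22 and 0.28. All 11 complex IV genes rose in the gRNA group over chow, with and without replicate 8. Of 16 genes of mitochondrial import and membrane structure 9 rose (median 0.20; 8 without replicate 8). The 36 genes left without the Ndufa4 pair had a median of 0.28, in a range of 0.20 to 0.40 for these nuclear lists, and no difference between lists was tested.

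Among 11 regulators of respiratory genes 5 rose and 1 fell in the gRNA group over HFHF control. Ppargc1a, a coactivator of respiratory genes, rose by 1.37 (SE 0.20, edgeR adjusted p = 2.79e-05, and by 1.23 without replicate 8). Its partners Esrrg and Esrra, orphan nuclear receptors, rose by 1.07 (SE 0.22, edgeR adjusted p = 0.000479) and 0.42 (SE 0.10, edgeR adjusted p = 0.00247). Gabpa, an ETS factor, rose by 0.39 (SE 0.07, edgeR adjusted p = 0.000218). The regulator that fell was Tfe3, a MiT/TFE factor, at -0.32 without replicate 8 (SE 0.09, edgeR adjusted p = 0.00513). Against chow 3 of the 11 rose in the gRNA group and 4 fell, with Gabpa and Tfe3 among those lower. Without replicate 8 these counts were 3 and 1. On the diet 5 of the 11 fell and 1 rose, with Esrrg at -1.46 and Gabpa at -0.60.

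Marker genes of liver cell types also differed between the groups. Of 8 hepatocyte markers 7 fell and 0 rose in HFHF control over chow, and 4 rose and 0 fell in the gRNA group over HFHF control (3 without replicate 8). Their summed level was 72780 to 96400 CPM in chow, 41250 to 61190 in HFHF control and 46940 to 79410 in the gRNA group. All 8 stellate cell markers rose on the diet, and 6 fell and 0 rose in the gRNA group over HFHF control (5 without replicate 8), with sums of 226 to 279, 517 to 623 and 303 to 396 CPM. All 4 tested cholangiocyte markers fell in the gRNA group over HFHF control (3 without replicate 8), and 3 had risen on the diet. Their sums over 6 genes were 24.8 to 35.7, 93.4 to 227.7 and 30.5 to 80.8 CPM. Of 7 lymphocyte markers 3 rose and 4 fell in the gRNA group over HFHF control, of 7 macrophage markers 3 rose and 2 fell, and of 6 endothelial markers 3 rose (4 without replicate 8) and 0 fell. Of 6 adipocyte genes Adipoq, Lep, Plin1 and Ucp1 were under 0.5 CPM in all libraries. Cidea, a lipid droplet gene, had a mean of 0.160 CPM in chow, 48.4 in HFHF control and 10.5 in the gRNA group, and fell between the HFHF groups (log2 difference -2.20, SE 0.37, edgeR adjusted p = 0.00015). Car3, a carbonic anhydrase gene, was at 1168 to 2384 CPM in HFHF control and 3377 to 5592 in the gRNA group, a rise of 1.31 (SE 0.15, edgeR adjusted p = 4.82e-07). The part of these shifts in the levels of the complex I genes was not tested.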

How the data were processed

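Liver mRNA of 20 libraries was analysed from 1 deposited table of expected counts, that is estimated read numbers that can be fractional (77.8% of values of at least 1 were whole within 1e-06). The build was GRCm38, per the submitters' processing notes. Libraries were made with an mRNA kit and adapters with molecular identifiers, per the labels' protocols. Aligner, counter, annotation, strand setting and any use of the identifiers: not given in the sources used here. Of 32422 features, 22 constructs with 7.0 counts in all were left out, as was 1 column matching no label. Gene names came from GENCODE M21 (32325 genes matched).

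Counts were rounded, filtered with filterByExpr (13667 genes kept), scaled by TMM and fitted with edgeR 4.0.16 in R 4.3.3 (robust quasi-likelihood, 3 groups in 1 fit, 17 residual degrees of freedom). Adjusted p-values are Benjamini-Hochberg values over all tested genes, with a threshold of 0.05. The fit was checked on simulated counts. Exact permutation tests used log2(CPM + 0.5). Alternatives were other scalings, no filter, DESeq2 1.42.0, the 2 compared groups alone, and each replicate left out. Dispersion across genes gave a biological coefficient of variation of 0.164. Of the 38 genes, 17 share exon bases with another gene and 11 have non-whole counts in some library, which leaves their reads partly uncertain.

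Genes given in full are the core subunits, Ndufa4 and Ndufa4l2, the 3 largest called rises and falls per comparison, and called genes against the main direction. Ndufb10 and Ndufb11, the Ndufs1 to Ndufa8 ratio and the share of core subunits were added after values were seen. 1 member is counted in all totals but not reported here by name or in the plots of single genes. At most 4 genes, those of smallest p, are named per other list, and Tfe3 was added as the regulator that fell. Members, lists and motifs were chosen with earlier results of these data known.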

Additional observations from a re-analysis of the deposited data

Results flagged for a closer look

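Levels of the 38 genes were checked for a library far from the rest of its group, its gap to the nearest library being large against the group's range. Of 114 groups of values 23 met this, in 22 genes. Chance would flag about 1 in 20, or 5.7, if the groups of values were independent. They are not, as the genes share libraries and deviated together (median correlation 0.83). The 2 counts therefore do not measure an excess over chance. In 21 of the 23 the library was gRNA replicate 8 at the top of its group. Its CPM was 227.0 for Ndufa10, 34.5 for Ndufa11, 72.3 for Ndufa12, 160.5 for Ndufa13, 96.4 for Ndufa3, 92.95 for Ndufa5, 69.8 for Ndufa7 and 86.5 for Ndufab1. In the distal membrane arm it was 78.1 for Ndufb3, 94.6 for Ndufb4, 61.4 for Ndufb6, 56.4 for Ndufb7 and 192.6 for Ndufb9. For the other genes it was 52.2 for Ndufc1, 80.7 for Ndufc2, 145.8 for Ndufs3, 88.2 for Ndufs4, 84.95 for Ndufs5, 87.6 for Ndufs6, 70.8 for Ndufs8 and 99.6 for Ndufv3. The remaining 2 were chow libraries: replicate 3 was highest for Ndufa2 at 36.5 CPM, and replicate 4 lowest for Ndufab1 at 45.98 CPM.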

How the results depend on the processing

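Upper-quartile scaling gave 16 higher genes for gRNA over HFHF control in place of 26, and 7 higher and 1 lower for HFHF control over chow in place of 2 and 5. For the diet, no low-count filter gave 1 lower, and the 2 groups alone gave 7 higher and 8 lower. With each replicate left out in turn the counts ran from 18 to 28 higher for gRNA over HFHF control, from 1 to 3 higher and 1 to 5 lower for the diet, and from 18 to 31 higher for gRNA over chow. Called under every alternative were 16 of 26, 2 of 7 and 17 of 21 genes in the 3 comparisons. Some values, none of them called, changed sign under an alternative. On the diet these were Ndufa12, Ndufa6, Ndufab1, Ndufc2, Ndufa4l2, Ndufs8 and Ndufv2, for gRNA over HFHF control Ndufa2, Ndufa7 and Ndufa11, and for gRNA over chow Ndufb11. Among the genes described in full, with upper-quartile scaling Ndufa4l2 was at 0.0392, Ndufs8 at 0.0187 and Ndufv2 at 0.0556. With a replicate left out Ndufa4l2 ran from -0.244 to 0.1375 (above 0 without chow replicate 1, 2 or 3 or HFHF control replicate 1 or 3), and Ndufv2 from -0.0522 to 0.0314 (above 0 without chow replicate 1 or 3). The cause was not tested. No paired analysis was possible, because the labels carry no replicate numbers and those used here only follow the order of the libraries. Ndufa4l2, at 4 to 22 counts per library, is limited by depth.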
